A study of Mus musculus with 32 samples.

Results

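Granulocyte-macrophage progenitors (GMPs) and megakaryocyte-erythrocyte progenitors (MEPs) of 10-week-old (Young) mice were compared by RNA sequencing, 2 libraries of each, the 2 fractions into which the myeloid branch of blood formation divides. These 4 of the 32 libraries of the series were taken by their labels alone, so no measured value chose them. The series covers 8 fractions of bone marrow stem and progenitor cells (HSCs, MPP1 to MPP4, GMPs, MEPs and CLPs) from female C57BL/6 mice at 10 weeks and at 20 months (Aged), with no allele or treatment that sets the groups apart. Both fractions lay in the IL-7-, Lin-, Sca-1-, c-kit+ gate of the cell sorter, and GMPs were FcgR+ CD34+ where MEPs were FcgR- CD34-. Per the study, marrow of each age was pooled and sorted in duplicate, so the duplicates may be technical and every p-value here then measures only the spread between these samples.

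GMPs give rise to neutrophils, eosinophils, basophils, monocytes and macrophages, and MEPs to red cells and platelets. The transcription factors PU.1 (encoded by Spi1) and C/EBPα drive the first branch, and GATA-1 with its partner FOG-1 (Zfpm1) and the Krüppel-like factor KLF1 the second, and PU.1 and GATA-1 are known to inhibit each other. GMPs are known for making the proteases of the neutrophil granules, and MEPs for the first steps of the erythroid program, ahead of the bulk of hemoglobin synthesis.

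The 4 libraries held 14548313 to 17723245 counts, within the 11237384 to 17723245 of the series, and 12357 to 12666 genes with at least 1 count. Levels are counts per 1000000 counts of the library (CPM), scaled with the TMM factors of the fit, and are given as the values of the first and the second library. A count of 0 allows up to 3 counts in a library, at most 0.215 CPM here, which is called the floor and covers counting error alone. A log2 fold change is GMP over MEP, so that it is negative where MEPs were higher. The value after ± is its standard error, taken as its size over the square root of the F statistic of its test. The 10 genes with the most counts took 9.89% and 10.0% of the GMP libraries and 4.62% and 4.66% of the MEP libraries. Mpo alone held 5.58% and 5.63% of the GMP counts. Over the 7435 genes that averaged 20 CPM or more in the 4 libraries, the root mean square log2 difference was 0.34 between the GMP duplicates, 0.40 between the MEP duplicates and 1.77 between the 2 fractions. A few genes switched between duplicates: Tuba1a had 9289 and 0 counts in the MEP libraries and Kctd12 had 0 and 800 counts in the GMP libraries, both named after their values were seen. How the authors' counting divides reads among similar genes was not tested.

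The gate genes and the markers of the fractions were read first, as a check of the labels. Cd34 was at 472 and 474 CPM in GMPs and 0.128 and 0.574 in MEPs. Fcgr3, the main Fc receptor gene of the gate, was at 489 and 473 CPM in GMPs and 1.28 and 2.01 in MEPs. The sort itself set these differences, so they check the labels and are no result. Kit, which both gates share, was at 294 and 325 CPM in GMPs and 298 and 378 in MEPs (log2 fold change -0.13 ± 0.11, adjusted p = 0.34), and the 2 groups overlapped. All 12 GMP markers were higher in both GMP libraries than in both MEP libraries and were called. Of the 12 MEP markers 10 were called higher in MEPs, and the other 2, Nfe2 and Itga2b, were called higher in GMPs. One gate gene went against its label. Il7r, a negative marker of both gates, had no count in the GMP libraries and 156 and 234 counts in the MEP libraries, in which B cell markers were also found, as described further on. In such bulk samples, fewer cells of a type and less RNA per cell cannot be told apart.

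The 2 fractions differed in 50.5% of the genes tested. Of 14154 genes tested, 3951 (27.9%) were higher in GMPs and 3194 (22.6%) higher in MEPs by edgeR's quasi-likelihood test at a Benjamini-Hochberg adjusted p under 0.01, which is what "called" means throughout. The median size of the 7145 called differences was 1.20 on the log2 scale. A difference of at least 5 on the log2 scale was reached by 335 genes higher in GMPs and 180 higher in MEPs. The split between directions depended on scaling. GMP-higher genes made 55.3% of the calls, 50.3% with the size factors of DESeq2 and 42.5% with offsets fitted to the GC content and length of genes (GC and length offsets), which moved the median gene by -0.09 on the log2 scale. Of the 811 different genes in 30 function lists, 808 were in the table and 796 were tested, and each list is read by the counts and the median of its tested members.

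**Figure D1:**
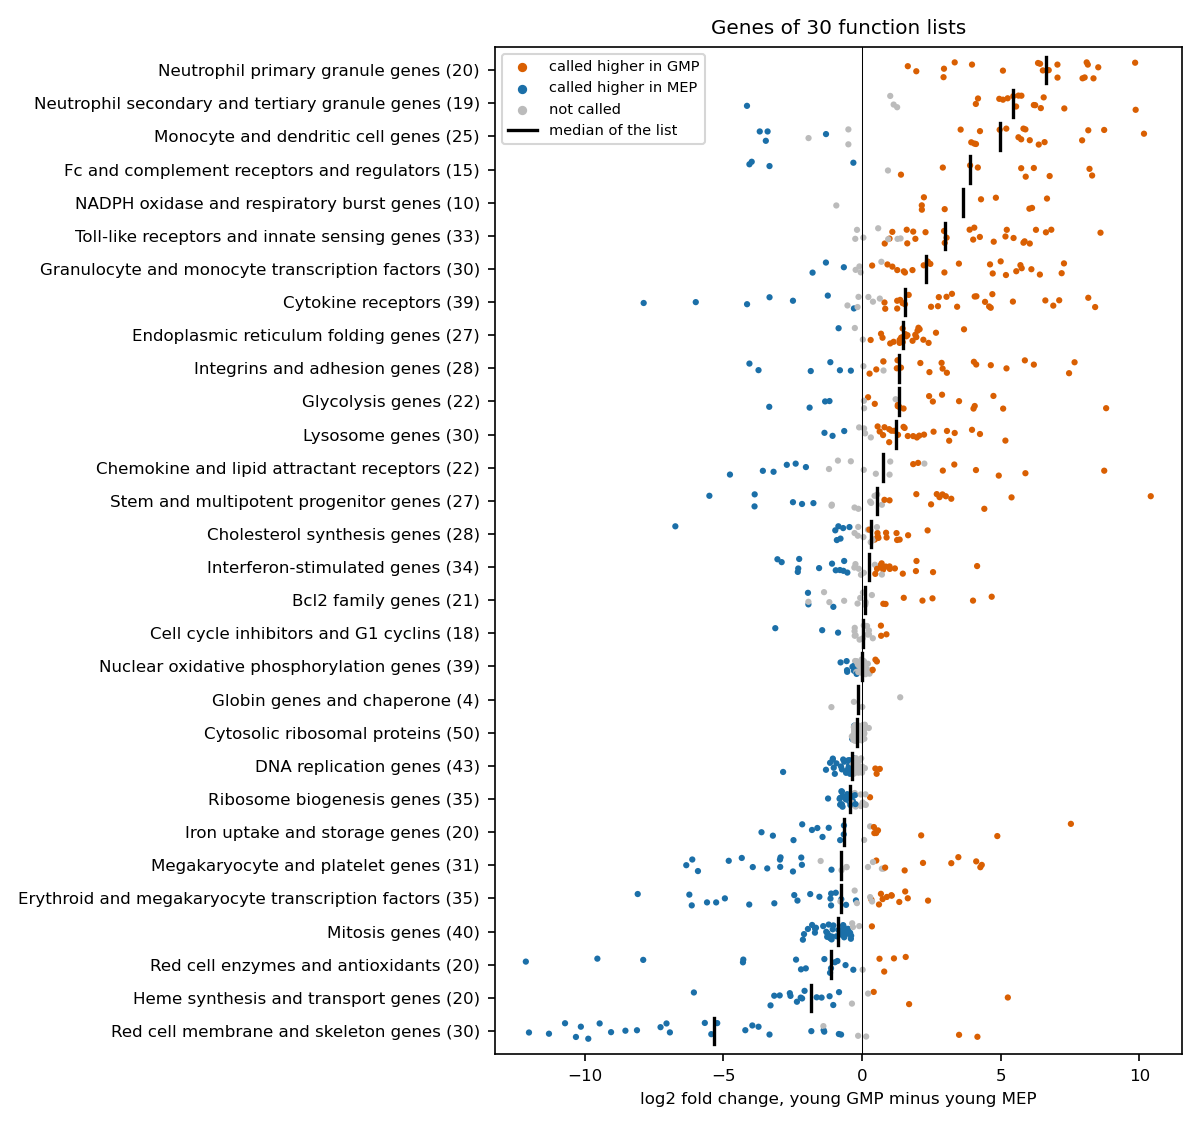
Log2 fold change of young GMPs over young MEPs (x axis) for the tested genes of 30 function lists (rows, number of genes drawn in parentheses, leaving out those at or under 3 counts in all 4 libraries), with called genes coloured by direction and the median as a black bar. Genes with one fraction at or under 3 counts in both libraries are drawn at the fold against that floor. Granule and innate immune lists lie to the right, red cell membrane and heme lists to the left, and the ribosomal proteins and respiratory chain stay near 0.

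Most transcription factors of the granulocyte and monocyte branch were higher in GMPs. Of 31 tested, 23 were called higher in GMPs and 3 in MEPs, with a median log2 fold change of 2.22, and 2.30 with near-zero groups set to the floor, beside a median of 0.00 over all genes tested. From the mean over the 16 young libraries, on the log2 scale, the list averaged 0.17 and 0.26 in GMPs and -2.40 and -2.46 in MEPs. It averaged 0.60 and 0.56 in MPP3 and 0.34 and 0.39 in CLPs. MEPs were thus low in this list mean, and GMPs were not the highest fraction. Spi1 was at 505 and 464 CPM in GMPs and 16.5 and 13.8 in MEPs (log2 fold change 5.0 ± 0.10, adjusted p = 5.9e-20). Cebpa, which GMPs need in order to form, was at 102 and 106 CPM in GMPs and 1.54 and 0.861 in MEPs (log2 fold change 6.41 ± 0.21, adjusted p = 9.1e-17). For both genes the MEP libraries lay far below the GMP libraries. Irf8, the factor of monocyte and dendritic cell fate, was at 1105 and 1102 CPM in GMPs and 19.6 and 27.3 in MEPs (log2 fold change 5.56 ± 0.15, adjusted p = 2.9e-18). Gfi1, a repressor that favours neutrophils, was at 151 and 132 CPM in GMPs and 4.87 and 2.80 in MEPs (log2 fold change 5.19 ± 0.23, adjusted p = 1.5e-14). Cebpe, which acts at the later, secondary granule stage of neutrophils, was already present, at 87.5 and 84.2 CPM in GMPs and 0.448 and 0.718 in MEPs (log2 fold change 7.20 ± 0.38, adjusted p = 2.9e-13). Cebpd (log2 fold change 4.61 ± 0.18, adjusted p = 8.3e-16) and Cebpb (log2 fold change 3.49 ± 0.68, adjusted p = 0.00012) were higher in GMPs as well. Cebpg was at 76.7 and 66.6 CPM in GMPs and 79.3 and 68.5 in MEPs (log2 fold change -0.05 ± 0.09, adjusted p = 0.72), and its groups overlapped. Tfec, a relative of MITF found in myeloid cells, was at 97.2 and 105 CPM in GMPs and 0.768 and 0.502 in MEPs (log2 fold change 7.28 ± 0.24, adjusted p = 5.5e-17). Id1, an inhibitor of E proteins, had 118 and 197 counts in GMPs and none in MEPs and was at least 54.0-fold higher in GMPs.

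The other 3 called members, Id2, Rxra and Relb, were higher in MEPs, and none of the 3 was called in a fit of the 4 libraries alone. Relb, of the NF-κB family, was at 4.03 and 6.17 CPM in MEPs and 0.712 and 2.21 in GMPs (log2 fold change -1.78 ± 0.36, adjusted p = 0.00017). Id2, another inhibitor of E proteins, was at 20.7 and 19.6 CPM in MEPs and 10.9 and 14.7 in GMPs (log2 fold change -0.65 ± 0.17, adjusted p = 0.0021). Without the first GMP library its log2 fold change was -0.56 and not called. The retinoid receptor gene Rxra was at 13.4 and 8.40 CPM in MEPs and 3.35 and 5.53 in GMPs (log2 fold change -1.30 ± 0.33, adjusted p = 0.0016), and was not called without the first GMP library (-1.09) or the first MEP library (-1.02). Among the smaller differences in favour of GMPs, Stat3, the signal transducer of the G-CSF receptor, was at 186 and 184 CPM in GMPs and 51.6 and 53.0 in MEPs (log2 fold change 1.82 ± 0.09, adjusted p = 1.2e-13). Zeb2 was at 139.8 and 121 CPM in GMPs and 64.4 and 57.7 in MEPs (log2 fold change 1.09 ± 0.12, adjusted p = 5.1e-08). Mef2c was at 87.8 and 89.4 CPM in GMPs and 41.1 and 52.8 in MEPs (log2 fold change 0.92 ± 0.10, adjusted p = 1e-07). These genes were thus expressed in both fractions. The macrophage factor gene Maf, at 0.0712 and 0.276 CPM in GMPs and 0.192 and 0.0718 in MEPs, was low in all 4 libraries and not called.

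**Figure D2:**
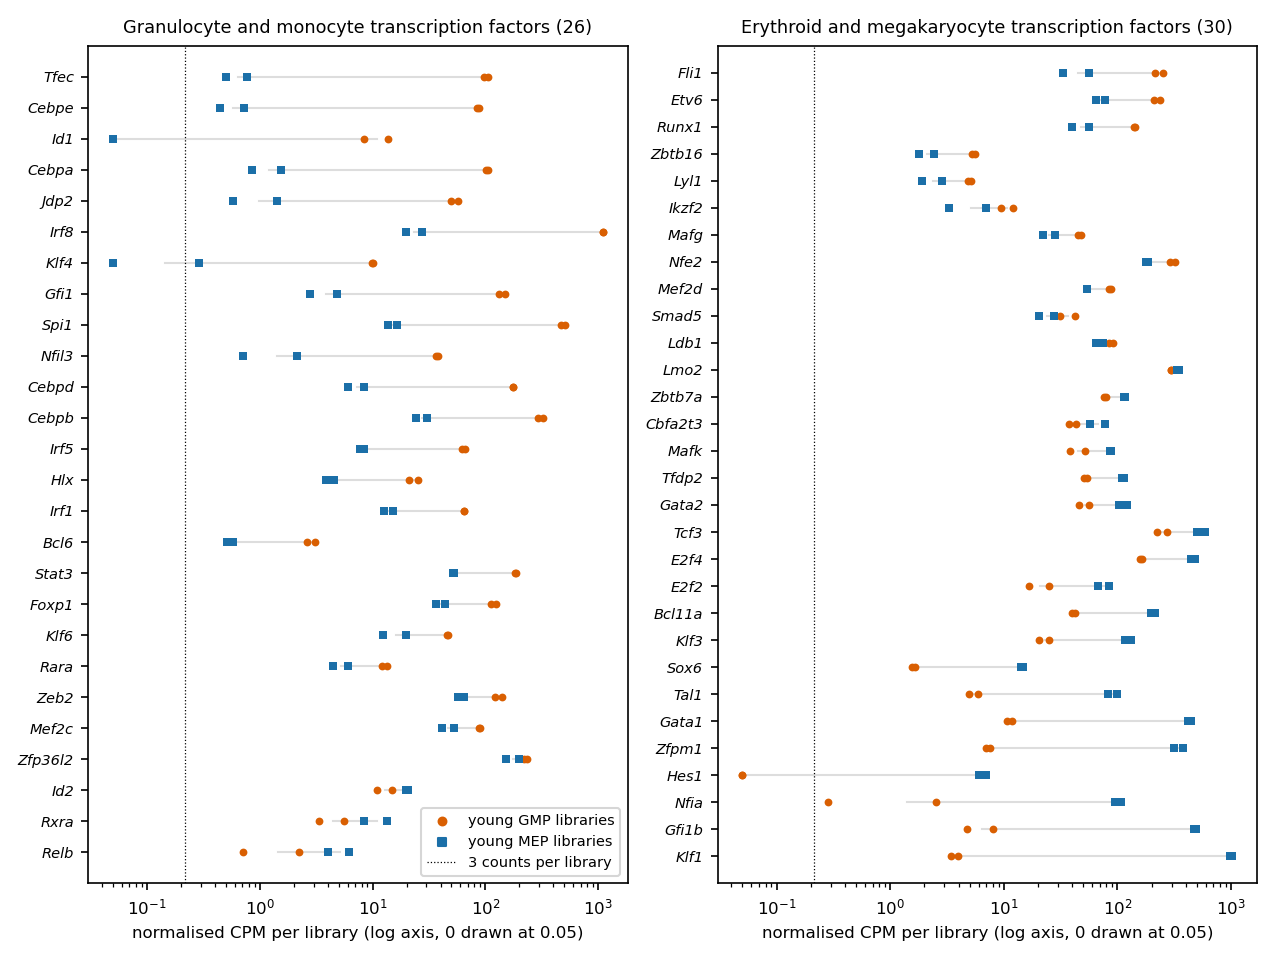
Normalised CPM (x axis, log scale) of the called transcription factors of both branches (rows, ordered by the ratio of the groups) in each young GMP library (orange circles) and each young MEP library (blue squares), with the highest level of 3 counts as a dotted line, 0 drawn at 0.05 and grey lines joining the group means. Spi1, Cebpa and Irf8 on the left and Klf1, Gata1 and Gfi1b on the right lie far apart, while Gata2, Lmo2, Runx1 and Nfe2 lie close together.

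The erythroid and megakaryocytic factors divided more evenly. Of 35 tested, 19 were called higher in MEPs and 11 in GMPs, with a median of -0.75. Over all tested genes 22.6% were higher in MEPs and 27.9% in GMPs, so the GMP count lies near that of all genes. Klf1 was at 1030.3 and 974 CPM in MEPs and 3.92 and 3.46 in GMPs (log2 fold change -8.08 ± 0.25, adjusted p = 2.3e-17). Gata1 was at 417 and 445 CPM in MEPs and 10.8 and 11.7 in GMPs (log2 fold change -5.26 ± 0.18, adjusted p = 1.8e-16). Its partner Zfpm1 was at 317 and 378 CPM in MEPs and 7.55 and 6.91 in GMPs (log2 fold change -5.59 ± 0.45, adjusted p = 3.4e-10). Gfi1b, the erythroid relative of Gfi1, was at 474 and 488 CPM in MEPs and 8.12 and 4.77 in GMPs (log2 fold change -6.22 ± 0.18, adjusted p = 8.2e-18). The related repressors Gfi1 and Gfi1b were high in opposite fractions. Tal1, which binds DNA with GATA-1, was at 82.3 and 99.8 CPM in MEPs and 4.92 and 5.94 in GMPs (log2 fold change -4.06 ± 0.18, adjusted p = 1.5e-14). Nfia, a factor tied to erythroid fate, was at 96.0 and 107 CPM in MEPs and 0.285 and 2.56 in GMPs (log2 fold change -6.14 ± 0.33, adjusted p = 3.1e-13). The globin silencers were present too: Bcl11a was at 214 and 199 CPM in MEPs and 39.8 and 42.6 in GMPs (log2 fold change -2.33 ± 0.11, adjusted p = 1.7e-14). Sox6 was at 14.3 and 14.7 CPM in MEPs and 1.57 and 1.66 in GMPs (log2 fold change -3.16 ± 0.25, adjusted p = 4.9e-10). Klf3, a target of KLF1, was at 132 and 117 CPM in MEPs and 25.1 and 20.5 in GMPs (log2 fold change -2.44 ± 0.13, adjusted p = 2.6e-13). Each of these was present in GMPs at a lower level. Of the cell cycle factors on the list, E2f4 was at 448 and 483 CPM in MEPs and 157 and 164 in GMPs (log2 fold change -1.54 ± 0.07, adjusted p = 9.7e-15). Hes1, a target of Notch, had 108 and 84 counts in MEPs and none in GMPs and was at least 30.7-fold higher in MEPs.

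Gata2 separated the branches far less than Gata1. It was at 103 and 120.4 CPM in MEPs and 46.4 and 56.8 in GMPs (log2 fold change -1.11 ± 0.21, adjusted p = 9.5e-05), and its groups did not overlap. The partners that bridge GATA-1 and TAL1 were found in both fractions. Lmo2 was at 335 and 348 CPM in MEPs and 294 and 293 in GMPs (log2 fold change -0.22 ± 0.06, adjusted p = 0.0026). Ldb1 was at 64.3 and 74.7 CPM in MEPs and 90.8 and 85.1 in GMPs (log2 fold change 0.34 ± 0.10, adjusted p = 0.0045). Neither of these 2 calls held in the fit of the 4 libraries alone, and that of Ldb1 was also lost without any one library (log2 fold changes from 0.13 to 0.31). Runx1 was at 139.8 and 143 CPM in GMPs and 56.4 and 39.6 in MEPs (log2 fold change 1.56 ± 0.11, adjusted p = 2.8e-11). Fli1, which favours platelets over red cells, was at 213 and 252 CPM in GMPs and 33.5 and 55.9 in MEPs (log2 fold change 2.38 ± 0.14, adjusted p = 1.4e-12). Etv6 was at 237 and 209 CPM in GMPs and 77.7 and 64.3 in MEPs (log2 fold change 1.65 ± 0.09, adjusted p = 2.5e-13). These 3 members, all needed by stem cells as well, were higher in GMPs than in MEPs, against the majority of their list. Nfe2, known for its role in platelet release, was at 322 and 289 CPM in GMPs and 179 and 186 in MEPs (log2 fold change 0.74 ± 0.12, adjusted p = 2.1e-05).

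The promoters of 6 genes are printed, because they are the sequences next to the start sites of genes at the ends of this comparison. They are the 3 genes per direction with the largest folds, among the named genes of the factor, granule, heme and red cell lists, whose 250 bases before the first listed start hold one of 4 motifs. The letters searched were AGATAA for the motif of GATA factors, CCACNCCC for that of KLF factors, GAGGAAGT for that of ETS factors such as PU.1 and TTGCNNAA for that of C/EBP factors, and the match on either strand is in capitals, a match on the other strand showing as the reverse complement. Windows are from RefSeq on GRCm38.p6 (the build of mm10), written 5′ to 3′ on the strand of the gene. Slpi (chr2:164356508-164356757, minus strand), Mpo (chr11:87793534-87793783, plus strand) and Prtn3 (chr10:79879417-79879666, plus strand) were higher in GMPs, and Rhd (chr4:134864286-134864535, plus strand), Zfpm1 (chr8:122281891-122282140, plus strand) and Gata1 (chrX:7967911-7968160, minus strand) were higher in MEPs.
Slpi: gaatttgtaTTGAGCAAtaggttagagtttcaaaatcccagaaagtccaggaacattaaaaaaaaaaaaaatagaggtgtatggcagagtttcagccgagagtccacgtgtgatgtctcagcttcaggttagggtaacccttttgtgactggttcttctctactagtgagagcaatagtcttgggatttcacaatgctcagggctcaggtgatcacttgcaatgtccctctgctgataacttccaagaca
Mpo: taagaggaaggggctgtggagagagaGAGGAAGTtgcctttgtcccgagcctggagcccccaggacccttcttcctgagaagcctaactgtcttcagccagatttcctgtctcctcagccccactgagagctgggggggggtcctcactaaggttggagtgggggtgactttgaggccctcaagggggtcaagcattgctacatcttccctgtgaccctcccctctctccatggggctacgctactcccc
Prtn3: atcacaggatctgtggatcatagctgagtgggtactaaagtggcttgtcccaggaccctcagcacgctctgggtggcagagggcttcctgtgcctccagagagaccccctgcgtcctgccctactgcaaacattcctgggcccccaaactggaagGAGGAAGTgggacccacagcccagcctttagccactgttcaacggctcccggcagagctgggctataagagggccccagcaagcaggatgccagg
Rhd: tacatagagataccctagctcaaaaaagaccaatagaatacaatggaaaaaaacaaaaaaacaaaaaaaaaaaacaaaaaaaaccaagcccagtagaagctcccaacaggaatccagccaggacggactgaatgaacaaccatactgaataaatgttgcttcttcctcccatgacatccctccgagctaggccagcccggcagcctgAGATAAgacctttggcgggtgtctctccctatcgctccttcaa
Zfpm1: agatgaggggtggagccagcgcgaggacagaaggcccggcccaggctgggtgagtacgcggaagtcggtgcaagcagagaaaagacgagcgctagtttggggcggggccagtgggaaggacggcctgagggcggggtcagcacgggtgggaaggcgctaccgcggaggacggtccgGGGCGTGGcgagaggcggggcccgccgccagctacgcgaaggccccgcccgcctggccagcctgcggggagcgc
Gata1: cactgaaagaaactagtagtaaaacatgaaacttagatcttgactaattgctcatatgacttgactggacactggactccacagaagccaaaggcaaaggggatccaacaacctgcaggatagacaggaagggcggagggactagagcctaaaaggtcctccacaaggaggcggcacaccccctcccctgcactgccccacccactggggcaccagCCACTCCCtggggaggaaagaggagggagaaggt

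The C/EBP match of Slpi lay 241 to 234 bases before the start, the ETS matches of Mpo and Prtn3 lay 224 to 217 and 95 to 88 bases before it, the GATA match of Rhd 43 to 38, and the KLF matches of Zfpm1 and Gata1 74 to 67 and 34 to 27. Of the 10646 tested genes with a listed promoter, 2.63% held the ETS letters, against 3.32% of the 3039 called higher in GMPs and 1.85% of the 2439 called higher in MEPs. The C/EBP letters were in 7.73%, 9.44% and 7.87%. The GATA letters were in 6.21%, 6.28% and 6.19%, and the KLF letters in 21.0%, 22.5% and 22.0%. These shares describe letters in a short window, with no test and no statement on binding.

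The genes of the neutrophil primary granules, the first granules to form, were higher in GMPs. Of 20 tested members 20 were called, all higher in GMPs, with a median log2 fold change of 6.62. Mpo, which encodes myeloperoxidase, was at 69091 and 68911 CPM in GMPs and 198 and 179 in MEPs (log2 fold change 8.52 ± 0.52, adjusted p = 3.9e-12). Elane (neutrophil elastase) was at 14884 and 14112 CPM in GMPs and 58.3 and 53.0 in MEPs (log2 fold change 8.03 ± 0.49, adjusted p = 3.2e-12). Prtn3 (proteinase 3) was at 4879.9 and 4470.3 CPM in GMPs and 17.5 and 15.6 in MEPs (log2 fold change 8.14 ± 0.22, adjusted p = 2.2e-18). The protease transcripts in MEPs were thus far below those of GMPs but above the floor, and Ctsg (cathepsin G) was at 2731 and 2585 CPM in GMPs and 10.4 and 8.97 in MEPs. Summed over the 21 listed genes, primary granule transcripts took 104565 and 102567 CPM in GMPs and 1712 and 1747 in MEPs. Calr, a chaperone gene placed in this list because it folds myeloperoxidase, was at 3462 and 3434 CPM in GMPs and 879.7 and 896 in MEPs (log2 fold change 1.96 ± 0.05, adjusted p = 5.7e-19).

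Genes of the later granules were also on the GMP side, at much lower sums. Of 19 tested secondary and tertiary granule genes, 15 were called higher in GMPs and 1 in MEPs, with a median of 5.78, and 5.45 with near-zero groups set to the floor. Their sum was 1341 and 1292 CPM in GMPs and 30.4 and 32.4 in MEPs. Anxa1 was at 481 and 488 CPM in GMPs and 14.9 and 13.7 in MEPs (log2 fold change 5.08 ± 0.11, adjusted p = 9.8e-20). Slpi, an inhibitor of elastase, was at 315 and 269.9 CPM in GMPs and 0.192 and 0.431 in MEPs (log2 fold change 9.86 ± 0.23, adjusted p = 3.2e-19). S100a8, of the calprotectin dimer, was at 209 and 202 CPM in GMPs and 4.23 and 3.37 in MEPs (log2 fold change 5.75 ± 0.38, adjusted p = 1.5e-11). Pglyrp1, a peptidoglycan-binding protein, was at 101 and 95.9 CPM in GMPs and 1.02 and 1.22 in MEPs (log2 fold change 6.45 ± 0.21, adjusted p = 4.2e-17). The member called the other way was Mmp9, a gelatinase, with 39 and 69 counts in MEPs and none in GMPs. The phagocyte oxidase was likewise on the GMP side, with 9 of 10 genes called higher in GMPs and a median of 3.64. Its organising subunit Ncf1 was at 542 and 576 CPM in GMPs and 3.84 and 7.25 in MEPs (log2 fold change 6.67 ± 0.17, adjusted p = 1.4e-18). The membrane subunit gene Cyba was at 373 and 291 CPM in GMPs and 77.0 and 71.7 in MEPs (log2 fold change 2.16 ± 0.15, adjusted p = 2.1e-11). The small GTPase gene Rac2 was at 822 and 792 CPM in GMPs and 161 and 183 in MEPs (log2 fold change 2.23 ± 0.10, adjusted p = 8.8e-15), so these 2 differed less than Ncf1.

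Monocyte genes accompanied the neutrophil genes. Of 26 monocyte and dendritic cell genes tested, 18 were called higher in GMPs and 4 in MEPs (median 4.61, and 4.96 with near-zero groups set to the floor). F13a1, the A chain of coagulation factor XIII and a marker of monocyte progenitors, was at 2075 and 2266 CPM in GMPs and 2.95 and 0.718 in MEPs (log2 fold change 10.16 ± 0.32, adjusted p = 3.8e-17). Ly6c2, whose protein marks inflammatory monocytes, was at 2672 and 2515 CPM in GMPs and 6.91 and 5.24 in MEPs (log2 fold change 8.73 ± 0.24, adjusted p = 4.7e-18). Clec12a was at 892 and 829 CPM in GMPs and 4.03 and 2.94 in MEPs (log2 fold change 7.93 ± 0.16, adjusted p = 1.2e-19). Csf1r, the M-CSF receptor, was at 386 and 409 CPM in GMPs and 1.73 and 1.00 in MEPs (log2 fold change 8.16 ± 0.26, adjusted p = 5.1e-17). These 4 genes were high in both GMP libraries and low in both MEP libraries. The 4 members called the other way were all genes of antigen presentation, among them Cd74, the invariant chain, at 109 and 121 CPM in MEPs and 10.6 and 10.2 in GMPs (log2 fold change -3.47 ± 0.31, adjusted p = 1.9e-09). H2-Ab1 was at 67.8 and 76.1 CPM in MEPs and 29.6 and 28.9 in GMPs (log2 fold change -1.30 ± 0.19, adjusted p = 3.1e-06). B cell markers, summed, were at 261 and 257 CPM in the same MEP libraries and 69.7 and 74.2 in the GMP libraries, and their part in these values was not tested.

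Receptors for danger signals were on the GMP side. Of 36 Toll-like receptor and innate sensing genes, 26 were called, all higher in GMPs (median 3.50, and 2.98 with near-zero groups set to the floor). Ly86, a co-receptor of the family, was at 166 and 165 CPM in GMPs and 2.95 and 2.01 in MEPs (log2 fold change 6.05 ± 0.20, adjusted p = 1.7e-16). The inflammasome adaptor Pycard was at 122 and 117 CPM in GMPs and 38.5 and 39.7 in MEPs (log2 fold change 1.61 ± 0.10, adjusted p = 4.7e-12). Myd88, the adaptor of most Toll-like receptors, was at 111 and 88.3 CPM in GMPs and 64.2 and 48.5 in MEPs (log2 fold change 0.82 ± 0.13, adjusted p = 7e-06) and was not called in the fit of the 4 libraries alone. Of 16 Fc and complement genes, 10 were called higher in GMPs and 4 in MEPs (median 5.59, and 3.90 with near-zero groups set to the floor). Fcgr3 and Fcgr2b, genes of the receptors bound by the FcgR antibody of the sort, are among the 10. The sort set their differences, so their part in the count and the median is no result. Complement C3 was at 226 and 270.1 CPM in GMPs and 0.256 and 1.36 in MEPs (log2 fold change 8.29 ± 0.38, adjusted p = 2.3e-14). The signalling chain Fcer1g was at 205 and 209 CPM in GMPs and 3.39 and 4.38 in MEPs (log2 fold change 5.74 ± 0.19, adjusted p = 5.9e-17). Cd55, which protects cells from complement, was higher in MEPs, at 30.2 and 38.5 CPM in MEPs and 1.99 and 2.35 in GMPs (log2 fold change -3.98 ± 0.20, adjusted p = 1.3e-13).

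The receptors of the lineage hormones lay in opposite fractions. Of 40 cytokine receptor genes tested, 26 were called higher in GMPs and 7 in MEPs (median 1.51, and 1.55 with near-zero groups set to the floor). Csf3r, the G-CSF receptor, was at 246 and 242 CPM in GMPs and 1.66 and 1.87 in MEPs (log2 fold change 7.11 ± 0.15, adjusted p = 8.6e-20). Epor, the erythropoietin receptor, was at 228 and 235 CPM in MEPs and 0.855 and 1.11 in GMPs (log2 fold change -7.87 ± 0.31, adjusted p = 5.7e-15). Each was thus abundant in its own fraction and at 1.87 CPM or less in the other. The 3 other receptors described here were named for their level, and each was higher in GMPs but present in both. Ifngr1, for interferon gamma, was at 818 and 840.1 CPM in GMPs and 290.1 and 276 in MEPs (log2 fold change 1.55 ± 0.08, adjusted p = 1.4e-13). Ifnar2, for the type I interferons, was at 218 and 217 CPM in GMPs and 79.3 and 78.2 in MEPs (log2 fold change 1.47 ± 0.08, adjusted p = 2.8e-13). Tnfrsf1b, for tumour necrosis factor, was at 301 and 294 CPM in GMPs and 20.4 and 13.6 in MEPs (log2 fold change 4.12 ± 0.12, adjusted p = 1.6e-17).

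The membrane and skeleton of the red cell made up the clearest MEP set. Of 30 genes tested, 25 were called higher in MEPs and 2 in GMPs, with a median log2 fold change of -5.32. Ermap, a blood group protein of erythroid cells, was at 678 and 765 CPM in MEPs and 0 and 0.553 in GMPs (log2 fold change -11.28 ± 0.33, adjusted p = 3.5e-17). Rhd, of the Rhesus complex, was at 620.3 and 640.0 CPM in MEPs and 0.57 and 0.76 in GMPs (log2 fold change -9.87 ± 0.33, adjusted p = 3.4e-16). The water channel gene Aqp1 was at 644 and 583 CPM in MEPs and 0.285 and 0 in GMPs (log2 fold change -12.00 ± 0.41, adjusted p = 1.2e-16). All 3 were at 0.76 CPM or less in the GMP libraries. The skeleton genes were divided between relatives. Add2, the beta adducin of red cells, was at 271 and 263 CPM in MEPs and had no count in GMPs. Add1, the more widely used alpha adducin, was at 399 and 412 CPM in MEPs and 163 and 153 in GMPs (log2 fold change -1.36 ± 0.06, adjusted p = 4.4e-14). Sptb, the red cell beta spectrin, was at 123 and 173 CPM in MEPs and had no count in GMPs. Sptan1, the non-erythroid alpha spectrin, was higher in GMPs, at 68.6 and 74.4 CPM in GMPs and 4.03 and 3.95 in MEPs (log2 fold change 4.16 ± 0.18, adjusted p = 1.1e-14). The other GMP-higher member was Slc2a1, the glucose transporter GLUT1, at 54.3 and 54.2 CPM in GMPs and 2.24 and 7.54 in MEPs (log2 fold change 3.50 ± 0.24, adjusted p = 3.1e-11).

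The enzymes of the red cell followed. Of 20 tested, 15 were called higher in MEPs and 4 in GMPs (median -1.13). Car1, a carbonic anhydrase abundant in red cells, was at 3448 and 3496 CPM in MEPs and 1.57 and 0 in GMPs (log2 fold change -12.12 ± 0.70, adjusted p = 1.5e-12). Car2, another of them, was at 7040.3 and 6906 CPM in MEPs and 30.3 and 28.6 in GMPs (log2 fold change -7.89 ± 0.14, adjusted p = 1e-20), the highest MEP level among the genes named here. Pklr, the red cell pyruvate kinase, had no count in GMPs and 152 and 161 CPM in MEPs, at least 743-fold higher. Its counterpart Pkm, which most other cells use, was at 2392 and 2417 CPM in GMPs and 70.4 and 71.0 in MEPs (log2 fold change 5.09 ± 0.07, adjusted p = 4e-22). The 2 pyruvate kinase genes were thus divided between the branches. Prdx2, a peroxiredoxin, was at 985 and 1039 CPM in MEPs and 200.4 and 189 in GMPs (log2 fold change -2.38 ± 0.09, adjusted p = 6e-16). Among the members higher in GMPs, Gpx1, a glutathione peroxidase, was at 4109.7 and 3734 CPM in GMPs and 2187 and 2317 in MEPs (log2 fold change 0.80 ± 0.09, adjusted p = 1.4e-07). G6pdx, the source of NADPH, was at 463 and 482 CPM in GMPs and 230.3 and 195 in MEPs (log2 fold change 1.15 ± 0.07, adjusted p = 3.7e-12).

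Heme synthesis genes were mostly higher in MEPs, but those of the first step were not. Of 20 tested, 15 were called higher in MEPs and 3 in GMPs (median -1.85). Of the enzymes after the first step, Alad, Uros, Urod, Cpox, Ppox and Fech were called higher in MEPs, with log2 fold changes from -3.30 to -1.63, all but Cpox being named after their values were seen. Cpox was at 981 and 958 CPM in MEPs and 105 and 92.0 in GMPs (log2 fold change -3.30 ± 0.07, adjusted p = 8.6e-20). The carrier gene Tmem14c was at 637 and 649.9 CPM in MEPs and 254 and 214 in GMPs (log2 fold change -1.46 ± 0.08, adjusted p = 1.1e-12). Alas1, the general form of aminolevulinate synthase, which makes the first step, went the other way and was at 1659 and 1642 CPM in GMPs and 44.6 and 41.7 in MEPs (log2 fold change 5.26 ± 0.08, adjusted p = 4e-22). Alas2, the erythroid form, named here after its values were seen, was at 7.81 and 12.6 CPM in MEPs and 28.9 and 37.2 in GMPs (log2 fold change 1.70 ± 0.47, adjusted p = 0.0034), so it was far below Alas1 in GMPs. The call of Alas2 was lost without the second GMP library (1.41), without the first MEP library (1.28) and with GC and length offsets (1.33). Of 20 iron genes, 11 were called higher in MEPs and 7 in GMPs (median -0.65). Tfrc, the transferrin receptor, was at 1246 and 1116 CPM in MEPs and 204 and 223 in GMPs (log2 fold change -2.47 ± 0.16, adjusted p = 9.7e-12). The ferritin gene Fth1 was at 3348 and 3359 CPM in MEPs and 1123 and 1074 in GMPs (log2 fold change -1.61 ± 0.13, adjusted p = 2.7e-10). Ncoa4, which sends ferritin to lysosomes, was higher in GMPs, at 873 and 874 CPM in GMPs and 206 and 193 in MEPs (log2 fold change 2.13 ± 0.08, adjusted p = 3.3e-16).

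Globin transcripts were found in both fractions. Of 4 globin genes tested, 0 were called by edgeR, 0 had an unadjusted p under 0.05 and 0 were called by DESeq2. Hba-a2 was at 595 and 623 CPM in MEPs and 674 and 553 in GMPs (log2 fold change 0.01 ± 1.46, adjusted p = 1), so its groups overlapped. Hba-a1 was at 203 and 149.8 CPM in MEPs and 133 and 155 in GMPs (log2 fold change -0.29 ± 0.80, adjusted p = 0.81). Hbb-bs was at 0.064 and 9.19 CPM in MEPs and 0.142 and 23.4 in GMPs, so its duplicates differed more than its groups. These 3 genes were named after their values were seen, and the alpha globin genes are near-identical copies among which the counting may have split reads. With standard errors of this size the values do not show that the levels were alike. Summed over the globin list, levels were 808 and 731 CPM in young GMPs and 799 and 782 in young MEPs. In the aged libraries the sums were 77.3 and 29.2 CPM in GMPs and 346 and 357 in MEPs. The sums of GMPs and MEPs thus lay close together in the young libraries but not in the aged ones. The cause was not tested.

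Platelet genes were mixed. Of 31 megakaryocyte and platelet genes tested, 14 were called higher in MEPs and 9 in GMPs, with a median of -2.17, and -0.74 with near-zero groups set to the floor. The GMP count lies near the 27.9% of all tested genes, and the MEP share of all genes was 22.6%. Pf4, platelet factor 4, was at 24.1 and 22.5 CPM in MEPs and 3.06 and 2.97 in GMPs (log2 fold change -2.95 ± 0.40, adjusted p = 1.5e-06). Mfsd2b, a sphingosine 1-phosphate exporter of red cells and platelets, was at 407 and 406 CPM in MEPs and 8.41 and 1.73 in GMPs (log2 fold change -6.33 ± 0.34, adjusted p = 9e-13). Gp5, of the von Willebrand factor receptor and named after its values were seen, was at 90.4 and 92.3 CPM in MEPs and 1.14 and 1.87 in GMPs (log2 fold change -5.91 ± 0.22, adjusted p = 5.4e-16). Platelet genes were thus present in MEPs, and Vwf itself was at 23.9 and 31.0 CPM in MEPs and 0.285 and 0.484 in GMPs (log2 fold change -6.12 ± 0.40, adjusted p = 1.2e-11). Itga2b, which encodes CD41, was higher in GMPs, at 42.5 and 50.4 CPM in GMPs and 30.9 and 34.1 in MEPs (log2 fold change 0.51 ± 0.15, adjusted p = 0.0067). This call was lost without any one of the 4 libraries (log2 fold changes from 0.29 to 0.53), with the size factors of DESeq2 and with GC and length offsets. Among the other members higher in GMPs, Rap1b, a small GTPase used far beyond platelets, was at 489 and 500.5 CPM in GMPs and 289 and 267 in MEPs (log2 fold change 0.83 ± 0.07, adjusted p = 1.6e-09).

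Genes of cell division were mostly higher in MEPs, by small folds. Of 40 mitosis genes, 36 were called higher in MEPs and 1 in GMPs (median -0.88). Ccnb1 (cyclin B1) was at 483 and 475 CPM in MEPs and 141 and 134 in GMPs (log2 fold change -1.80 ± 0.08, adjusted p = 2.4e-14). Ccna2 (cyclin A2) was at 746 and 757 CPM in MEPs and 305 and 310.2 in GMPs (log2 fold change -1.29 ± 0.08, adjusted p = 9.3e-12). Top2a, which untangles DNA before division, was at 609 and 589 CPM in MEPs and 275 and 301 in GMPs (log2 fold change -1.06 ± 0.13, adjusted p = 2.4e-07). Of 43 DNA replication genes, 23 were called higher in MEPs and 3 in GMPs (median -0.35). Rrm1, a subunit of ribonucleotide reductase, was at 1475 and 1477 CPM in MEPs and 722 and 735 in GMPs (log2 fold change -1.02 ± 0.06, adjusted p = 6e-12). Rrm2, the other subunit, was at 1108 and 1123 CPM in MEPs and 573 and 559 in GMPs (log2 fold change -0.98 ± 0.08, adjusted p = 1.8e-10). Of 18 genes for G1 cyclins and cell cycle inhibitors, 3 were called higher in GMPs and 3 in MEPs. Neither count exceeds the share over all tested genes, 27.9% and 22.6%. The 2 D cyclins named here were divided, with Ccnd2 at 224 and 198 CPM in GMPs and 119 and 143 in MEPs (log2 fold change 0.69 ± 0.13, adjusted p = 6.8e-05), though it was not called without the first MEP library (0.46). Ccnd3 was at 726 and 678 CPM in MEPs and 386 and 386 in GMPs (log2 fold change -0.86 ± 0.08, adjusted p = 2.6e-09). Rb1, the retinoblastoma gene, was at 105 and 114 CPM in MEPs and 32.1 and 48.7 in GMPs (log2 fold change -1.44 ± 0.18, adjusted p = 5.6e-07).

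Of 35 ribosome biogenesis genes, 23 were called higher in MEPs and 1 in GMPs (median -0.42). Ncl (nucleolin) was at 1875 and 1716 CPM in MEPs and 1255 and 1346 in GMPs (log2 fold change -0.47 ± 0.11, adjusted p = 0.0006). Npm1 (nucleophosmin) was at 1168 and 1167 CPM in MEPs and 805 and 753 in GMPs (log2 fold change -0.58 ± 0.09, adjusted p = 1.5e-05). Of 50 ribosomal protein genes 3 were called, all higher in MEPs, with a median of -0.17. Of 39 nuclear genes of the respiratory chain, 4 were called higher in GMPs and 9 in MEPs, with a median of -0.01. The shares over all tested genes were 27.9% and 22.6%, so the MEP count is no result about this list. The counts of these lists depended on scaling: with GC and length offsets, 40 ribosomal protein genes and 23 respiratory chain genes were called higher in MEPs. The GMP libraries held 0.530% to 0.541% and the MEP libraries 0.967% to 1.00% of their counts on Rn45s, the ribosomal RNA precursor, named after its values were seen, a value that moves with the fractions and whose part in these lists was not tested.

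Genes of protein folding and of lysosomes were mostly higher in GMPs. Of 27 endoplasmic reticulum folding genes, 24 were called higher in GMPs and 1 in MEPs (median 1.47). P4hb, a disulfide isomerase, was at 3568 and 3615 CPM in GMPs and 784 and 767 in MEPs (log2 fold change 2.21 ± 0.05, adjusted p = 7.5e-19). Pdia3, another of these, was at 1957 and 2080.2 CPM in GMPs and 804 and 772 in MEPs (log2 fold change 1.36 ± 0.06, adjusted p = 2.5e-14). Hspa5, the chaperone BiP, was at 3719.7 and 3843 CPM in GMPs and 1516 and 1436 in MEPs (log2 fold change 1.36 ± 0.10, adjusted p = 3.9e-11). Summed, the folding genes took 24031 and 24332 CPM in GMPs and 8780.0 and 8520.3 in MEPs. Xbp1, a factor of secretory cells, was at 645 and 604 CPM in GMPs and 146 and 149.7 in MEPs (log2 fold change 2.08 ± 0.10, adjusted p = 7.4e-14). Ddit3 (CHOP), the stress factor, was higher in MEPs, at 8.77 and 7.61 CPM in MEPs and 4.99 and 4.15 in GMPs (log2 fold change -0.84 ± 0.20, adjusted p = 0.0011), though not called in the fit of the 4 libraries alone. Of 30 lysosome genes, 23 were called higher in GMPs and 3 in MEPs (median 1.23). Lamp1, of the lysosomal membrane, was at 1023 and 1035 CPM in GMPs and 499 and 486 in MEPs (log2 fold change 1.06 ± 0.06, adjusted p = 3.4e-12). Psap (prosaposin) was at 976 and 990.3 CPM in GMPs and 224 and 275 in MEPs (log2 fold change 1.98 ± 0.13, adjusted p = 8e-12). Ctsz (cathepsin Z) was at 602 and 597 CPM in GMPs and 136 and 151 in MEPs (log2 fold change 2.06 ± 0.12, adjusted p = 7.7e-13).

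Glycolysis genes were mostly higher in GMPs, with 15 of 22 called in that direction, 4 in the other and a median of 1.32. Gpi1, of the second step, was at 1964 and 1933 CPM in GMPs and 259.8 and 268 in MEPs (log2 fold change 2.89 ± 0.07, adjusted p = 8.1e-19). Gapdh was at 3171 and 3182 CPM in GMPs and 1265 and 1336 in MEPs (log2 fold change 1.29 ± 0.09, adjusted p = 1.6e-11). Eno1 (enolase) was at 1844 and 1827 CPM in GMPs and 636 and 664 in MEPs (log2 fold change 1.5 ± 0.07, adjusted p = 6.2e-14). The hexokinase Hk1, known in red cells, was at 537 and 542 CPM in MEPs and 183 and 246 in GMPs (log2 fold change -1.33 ± 0.15, adjusted p = 1.1e-07). The lactate carrier gene Slc16a1 was at 945 and 939.7 CPM in MEPs and 407 and 429.8 in GMPs (log2 fold change -1.17 ± 0.08, adjusted p = 3.8e-11). Hk1 and Slc16a1 were thus higher in the other fraction than most of the list. Of 28 genes of the cholesterol synthesis list, 12 were called higher in GMPs and 7 in MEPs (median 0.31). Fdps, of the mevalonate pathway, was at 297 and 271 CPM in GMPs and 89.0 and 90.4 in MEPs (log2 fold change 1.66 ± 0.09, adjusted p = 4.2e-13). Srebf1, the regulator of fatty acid synthesis, was at 191 and 242 CPM in MEPs and 96.2 and 126 in GMPs (log2 fold change -0.96 ± 0.11, adjusted p = 1.9e-07).

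Surface genes for adhesion and migration were also divided. Of 29 integrin and adhesion genes, 19 were called higher in GMPs and 6 in MEPs (median 1.40, and 1.34 with near-zero groups set to the floor). Selplg, the ligand of P-selectin, was at 659.7 and 662 CPM in GMPs and 91.6 and 89.4 in MEPs (log2 fold change 2.87 ± 0.08, adjusted p = 4.5e-18). Cd24a was at 1253 and 1219.9 CPM in MEPs and 337 and 349.9 in GMPs (log2 fold change -1.85 ± 0.07, adjusted p = 3e-16). Itgb1, the beta 1 integrin, was at 415 and 379 CPM in MEPs and 306 and 295 in GMPs (log2 fold change -0.40 ± 0.10, adjusted p = 0.0017). Of 24 receptors for chemokines and lipid attractants, 8 were called higher in GMPs and 6 in MEPs (median 0.75). These counts lie near the shares over all tested genes, 27.9% and 22.6%, so they are no result about the list. Ccr2, which brings monocytes out of the marrow, was at 209 and 233 CPM in GMPs and 2.43 and 5.10 in MEPs (log2 fold change 5.89 ± 0.33, adjusted p = 7e-13). Ltb4r1, the leukotriene B4 receptor, was at 213 and 168 CPM in GMPs and 0.576 and 0.287 in MEPs (log2 fold change 8.73 ± 0.31, adjusted p = 2.9e-16). Cxcr4, which holds progenitors in the marrow, was at 41.1 and 38.8 CPM in GMPs and 8.64 and 11.1 in MEPs (log2 fold change 2.02 ± 0.19, adjusted p = 4.6e-09). On the MEP side, S1pr1, the receptor for sphingosine 1-phosphate that guides cells into blood, was at 9.73 and 10.8 CPM in MEPs and 1.92 and 3.11 in GMPs (log2 fold change -2.02 ± 0.18, adjusted p = 1.8e-09).

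The remaining lists had members in both directions. Of 28 stem and multipotent progenitor genes, 12 were called higher in GMPs and 6 in MEPs, beside 27.9% and 22.6% of all genes tested. The first count includes Cd34, a gate gene whose difference the sort set. Cd27 was at 50.4 and 44.8 CPM in GMPs and 2.43 and 2.01 in MEPs (log2 fold change 4.41 ± 0.19, adjusted p = 5.5e-15). Sox4 was at 89.1 and 118 CPM in GMPs and 58.2 and 60.0 in MEPs (log2 fold change 0.81 ± 0.11, adjusted p = 1.2e-06). Mllt3, a regulator of stem cell upkeep, was at 82.5 and 70.3 CPM in MEPs and 4.63 and 5.81 in GMPs (log2 fold change -3.87 ± 0.13, adjusted p = 6.6e-17). Of 34 interferon-stimulated genes, 15 were called higher in GMPs and 12 in MEPs. Psmb8, an immunoproteasome subunit, was at 688 and 595 CPM in GMPs and 109 and 108 in MEPs (log2 fold change 2.56 ± 0.10, adjusted p = 2.1e-15). Irgm1, a guanosine triphosphatase of host defence, was at 120.3 and 133 CPM in MEPs and 81.0 and 81.1 in GMPs (log2 fold change -0.64 ± 0.06, adjusted p = 4.2e-09). Of 21 Bcl2 family genes, 7 were called higher in GMPs and 3 in MEPs. With shares of 27.9% and 22.6% over all tested genes, these counts are no result about the list. Bcl2, which protects cells from death, was at 64.8 and 66.1 CPM in GMPs and 16.8 and 12 in MEPs (log2 fold change 2.18 ± 0.17, adjusted p = 1.5e-10). Its antagonist Bcl2l11 (BIM) was at 56.9 and 57.8 CPM in MEPs and 13 and 17.0 in GMPs (log2 fold change -1.93 ± 0.13, adjusted p = 1.9e-11). These 2 named members were thus higher in opposite fractions. The medians of the interferon-stimulated, Bcl2 and G1 lists changed sign with GC and length offsets, so no direction is read from them.

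The largest differences over all genes were between expression and no count at all. The 10 genes per direction with the largest fitted folds, among those with at least 20 CPM in both libraries of the higher group, had 0 counts in both libraries of the other. Their folds are therefore lower bounds, taken against the floor of 3 counts per library. Prss34, a basophil protease, was at 361 and 343 CPM in GMPs, at least 1728-fold higher. Epx, eosinophil peroxidase, was at 309 and 344 CPM, at least 1604-fold higher. Hpse (heparanase) was at 109 and 108 CPM. Clec7a, the receptor Dectin-1 for fungal glucan, was at 73.7 and 84.0 CPM. Mefv, which encodes pyrin, was at 52.1 and 71.3 CPM. The set also held Gpx3, Hsd11b1, S1pr3 and the gene models Gm6498 and Gm5424, whose bounds lay between 333-fold and 526-fold. The call of Gm5424 was lost without any one of the 4 libraries.

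On the MEP side the same rule gave Sphk1, the kinase that makes sphingosine 1-phosphate, at 367 and 419.6 CPM, at least 1868-fold higher. Slc38a5, an amino acid carrier, was at 388 and 366 CPM, at least 1789.7-fold higher. Cldn13, a claudin found in mouse erythroid cells, was at 345 and 357 CPM, at least 1667-fold higher. Add2 was at least 1269.9-fold, Pklr at least 743-fold and Sptb at least 702-fold higher. The other 4 were Sh2d4a, Sh3tc2, St3gal6 and Myh10, a non-muscle myosin, with bounds between 387-fold and 607-fold. Add2, Cldn13, Pklr and Sptb, 4 of these 10 genes, belong to the red cell lists above. Sphk1, the maker of sphingosine 1-phosphate, and Mfsd2b, its exporter, were thus both on the MEP side, as was its receptor S1pr1, while its receptor S1pr3 was on the GMP side.

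Markers of other blood cells were then read in the same libraries. Transcripts of the eosinophil and basophil lines were on the GMP side: of 10 eosinophil markers 8 were called, all higher in GMPs, and of 14 basophil and mast cell markers 8 were called higher in GMPs and 1 in MEPs. Prg2, eosinophil major basic protein, was at 1271 and 1137 CPM in GMPs and 0.64 and 0.287 in MEPs (log2 fold change 11.29 ± 0.54, adjusted p = 3.8e-13). Hdc, the histamine-forming enzyme, was at 483 and 466 CPM in GMPs and 2.30 and 1.15 in MEPs (log2 fold change 8.07 ± 0.38, adjusted p = 2.8e-14). Cpa3, shared by mast cells and basophils, was at 148 and 153 CPM in GMPs and 3.52 and 2.80 in MEPs (log2 fold change 5.56 ± 0.14, adjusted p = 8.1e-19). The tryptases Tpsb2 and Tpsab1, which define mature mast cells, had no count in any of the 4 libraries. Cma1, another marker on this list, had none in MEPs but was counted in GMPs.

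Transcripts of the B cell line were found in the MEP libraries. Of 14 B cell markers 9 were called higher in MEPs and 1 in GMPs, with sums of 261 and 257 CPM in MEPs and 69.7 and 74.2 in GMPs. Cd79a, a chain of the B cell receptor complex, was at 53.5 and 57.5 CPM in MEPs and 1.71 and 1.52 in GMPs (log2 fold change -5.10 ± 0.28, adjusted p = 1.8e-11). Igll1, of the surrogate light chain, was at 44.1 and 40.1 CPM in MEPs and 1.07 and 1.38 in GMPs (log2 fold change -5.09 ± 0.16, adjusted p = 5e-13). Ebf1, the early B cell factor, had 199 and 180 counts in MEPs and none in GMPs, and was named after its values were seen. The genes that define B cell progenitors were thus present in both MEP libraries. In young CLPs, the lymphoid progenitors of the series, mean levels were 987 CPM for Cd79a, 517 CPM for Igll1 and 158 CPM for Il7r, against 55.5, 42.1 and 13.4 CPM in young MEPs. The marker called higher in GMPs was Cd79b, at 59.6 and 66.5 CPM in GMPs and 21.3 and 27.7 in MEPs (log2 fold change 1.36 ± 0.17, adjusted p = 2.6e-07). Cd22 had no count in MEPs, and Pax5 had none in GMPs, which were also read after the values were seen. In the aged MEP libraries the sum of the list was 2.44 and 3.18 CPM.

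Macrophage markers summed to 241 and 256 CPM in GMPs and 227 and 239 in MEPs, and of 13 tested 7 were called higher in GMPs and 1 in MEPs. Vcam1 was at 100.03 and 117 CPM in GMPs and 1.98 and 3.95 in MEPs (log2 fold change 5.21 ± 0.24, adjusted p = 2e-14). The iron exporter gene Slc40a1, which erythroid cells also use, was at 207 and 220.0 CPM in MEPs and 81.1 and 78.0 in GMPs (log2 fold change -1.42 ± 0.15, adjusted p = 4e-08). T and NK cell markers summed to 1.42 and 6.91 CPM in GMPs and 16.1 and 17.9 in MEPs, and the 5 of 14 called were higher in MEPs. Stroma and endothelium markers summed to 21.8 and 16.1 CPM in GMPs and 36.2 and 35.0 in MEPs. Plasma cell markers summed to 709 and 659 CPM in GMPs and 178 and 178 in MEPs, with Xbp1 as the main part. Of the 15 T and NK markers, only Cd3g and Gzma had no count in any of the 4 libraries. Cd3d, Cd3e, Bcl11b and Ncr1, among others, had none in GMPs but were counted in MEPs. In both MEP libraries 9 of the 15 were above the floor, against 1 in both GMP libraries. Lepr, Col1a1 and Col3a1 for stroma and Jchain for plasma cells had no count in any of the 4 libraries. Col1a2 for stroma and Mzb1 for plasma cells had none in GMPs but were counted in MEPs.

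**Figure D3:**
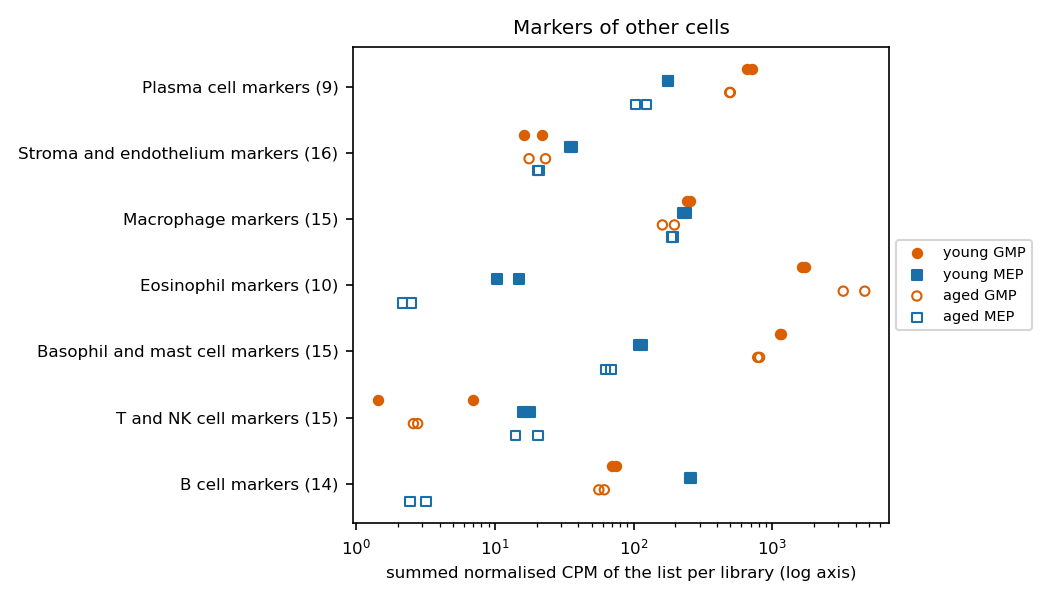
Summed normalised CPM (x axis, log scale) of the marker lists of other cells (rows, number of genes in parentheses) in each young GMP and MEP library (filled) and each aged one (open). Eosinophil and basophil markers lie between 1139 and 1733 CPM in the young GMP libraries and between 10.3 and 114 CPM in the young MEP libraries. B cell markers lie at 257 and 261 CPM in the young but at 2.44 and 3.18 CPM in the aged MEP libraries.

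Set among all 8 young fractions, GMPs, MEPs or both lay at an end of the range for the genes named next. Mpo averaged 61.7 CPM in HSCs, 83.1 in MPP1, 636 in MPP4, 1180.2 in CLPs, 1522 in MPP2 and 2958 in MPP3, with 69001 in GMPs and 189 in MEPs, so the MEP level lay above HSCs and MPP1 and below all others. Spi1 was at 116 to 203 CPM in the other 6 fractions, which placed GMPs (484) above and MEPs (15.1) below every other fraction. For Klf1 the next highest fraction after MEPs was MPP2, at 15.4 CPM. Gata1 had the same order, with 45.8 CPM in MPP2. Epor was 0.799 to 10.7 CPM in the other 7 fractions, against 232 in MEPs.

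Other genes and lists had other orders. List means are given on the log2 scale from the young mean. Secondary and tertiary granule genes lay at 0.72 and 0.95 in GMPs but 2.34 and 2.29 in MPP3. Monocyte and dendritic cell genes lay at 1.89 and 1.87 in GMPs but 2.96 and 2.90 in CLPs. Oxidase genes lay at 1.61 and 1.27 in GMPs but 2.01 and 2.05 in CLPs. Basophil and mast cell markers lay at 1.83 and 2.12 in GMPs but 3.53 and 3.51 in MPP3. Gata2 was highest in HSCs (510.4 CPM) and lower in both MEPs (112) and GMPs (51.6). Fli1 was 162 to 249 CPM in the other 7 fractions and 44.7 in MEPs, and Runx1 141 to 189 in those 7 and 48.0 in MEPs. Pkm was 1142 CPM or more in all 7 others and 70.7 in MEPs, the lowest of the 8. Car2 was 933 to 1634 CPM in HSCs and MPPs, 126 in CLPs, 29.5 in GMPs and 6973 in MEPs, so it was both low in the one and high in the other. Alas1 was 43.2 to 89.9 CPM in all fractions but GMPs, which had 1651 CPM, so the MEP level was the ordinary one. Itga2b was highest in MPP2 (252 CPM), and Vwf in HSCs (222 CPM), with MEPs at 27.4. Immediate early and heat shock genes, which respond to handling, lay -3.24 and -3.14 in GMPs and -3.42 and -3.30 in MEPs from the young mean on the log2 scale, and between 0.22 and 1.67 above it in the other fractions. Between the 2 fractions 4 of 20 of the immediate early and heat shock genes were called higher in GMPs and 6 in MEPs. These counts lie near the shares over all tested genes, 27.9% and 22.6%, and are no result about the list. These levels across fractions are descriptions with no test, and the part of handling in them was not tested.

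**Figure D4:**
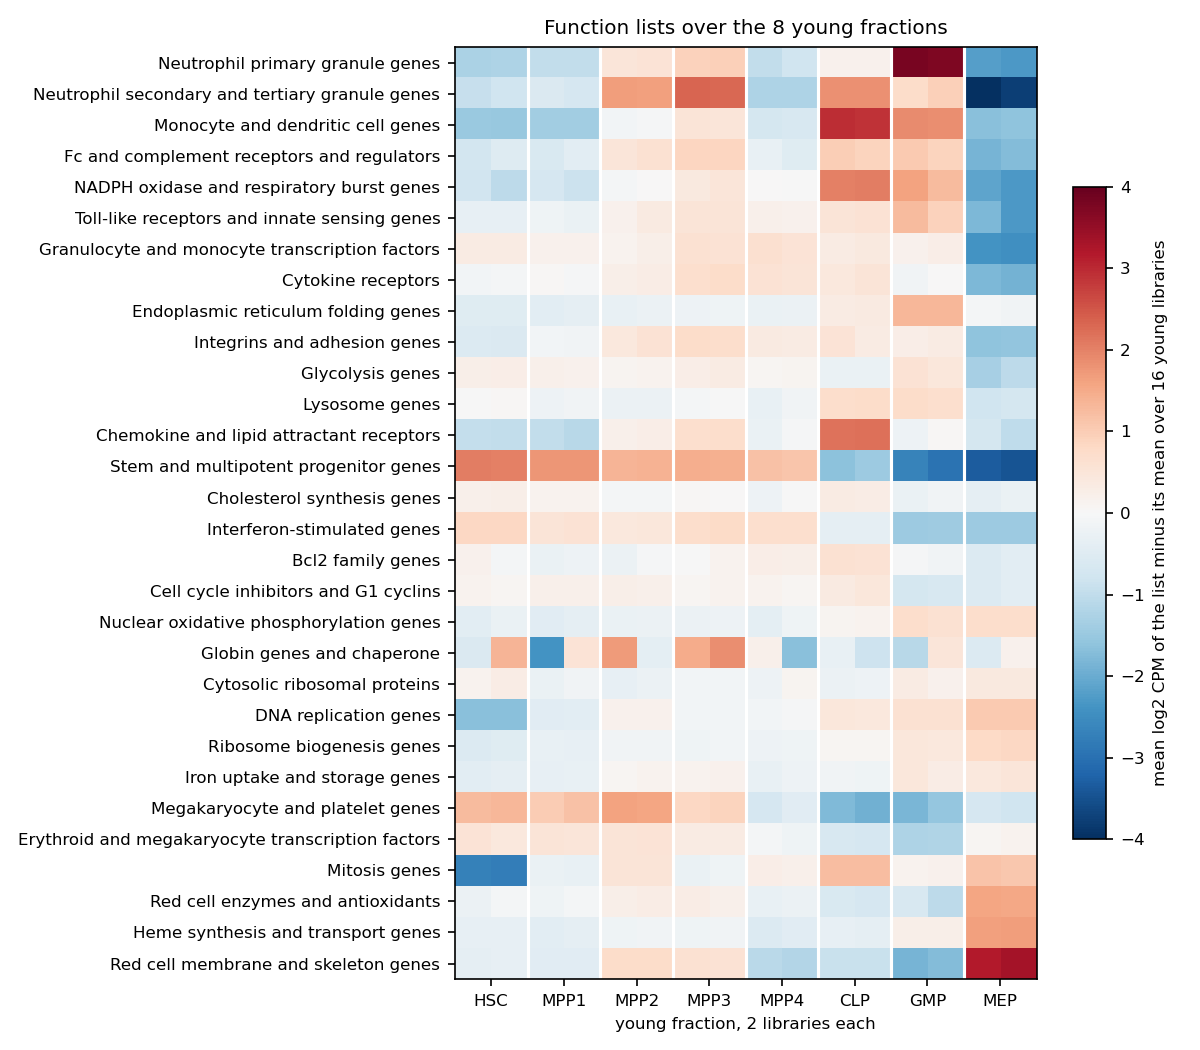
Mean log2 CPM of each function list minus its mean over the 16 young libraries (colour) in the 2 libraries of each young fraction (columns), lists ordered as by their GMP to MEP difference (rows). Primary granule genes are highest in GMPs, red cell membrane, heme and red cell enzyme genes in MEPs, and the interferon-stimulated and stem cell lists are lower in GMPs and MEPs than in HSCs and MPPs. Secondary and tertiary granule genes are highest in MPP3, and monocyte and oxidase genes in CLPs.

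The same difference was then read in the aged libraries, which the choice of the young ones did not use. Of the 7145 genes called at 10 weeks, 6845 (95.8%) had the same sign of the fitted difference at 20 months. The difference between GMPs and MEPs itself changed with age in 946 genes (6.68% of those tested), by the interaction term of the same fit, in which age and preparation cannot be told apart. Of these, 18.7% had a value above 0 for the young minus the aged log2 fold change, and 32.1% of the calls with GC and length offsets did. The largest class was that of 495 genes higher in young GMPs with a larger difference at 20 months. In these genes the median log2 change from young to aged was -1.82 in MEPs and 0.16 in GMPs, so the MEP level, already the lower one, was lower still in the aged libraries. The young libraries enter both the choice of these genes and this value. A smaller difference at 20 months was called in 73 genes higher in GMPs and 169 higher in MEPs, and a larger one in 68 genes higher in MEPs.

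Irf8 was at 19.6 and 27.3 CPM in young and 1.87 and 2.50 CPM in aged MEPs, and at 1105 and 1102 CPM in young and 970.3 and 1012 CPM in aged GMPs. Its log2 fold change at 10 weeks minus that at 20 months was -3.25 ± 0.23, adjusted p = 2e-09. Spi1 was at 16.5 and 13.8 CPM in young and 3.19 and 3.61 CPM in aged MEPs (difference -2.15 ± 0.16, adjusted p = 2.6e-09). Gfi1 was at 4.87 and 2.80 CPM in young and 0.375 and 0 CPM in aged MEPs (difference -4.81 ± 0.59, adjusted p = 4.9e-06). Pkm was at 70.4 and 71.0 CPM in young and 13.7 and 14.3 CPM in aged MEPs (difference -2.58 ± 0.09, adjusted p = 3e-14). In all 4 genes both aged MEP libraries lay below both young ones. All 4 were called with a value below 0 from these same libraries, so this partly follows from that call. Over all 3951 genes called higher in GMPs, the median log2 change from young to aged in MEPs was -0.04. Mpo was not called, with 82.5 and 19.5 CPM in the aged MEP libraries, which lie far apart (difference -1.88 ± 0.55, adjusted p = 0.027). The B cell markers were lower in aged MEPs too, with Cd79a at 53.5 and 57.5 CPM in young and no count in aged MEPs, and their part in this pattern was not tested.

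Erythroid factors were also compared. Klf1 was at 1030.3 and 974 CPM in young and 1119 and 1065 CPM in aged MEPs, and its difference was not called (1.58 ± 0.43, adjusted p = 0.018). Gata1 was at 529 and 527 CPM in aged MEPs and 5.73 and 5.70 CPM in aged GMPs, so its branch difference was larger there (1.27 ± 0.26, adjusted p = 0.0018). Gfi1b was at 617 and 523 CPM in aged MEPs and 1.52 and 1.87 CPM in aged GMPs (2.16 ± 0.30, adjusted p = 2.7e-05). Among genes with at least 20 CPM in both libraries of 1 of the 4 young and aged groups, the 5 called with the most negative fitted values were Igll1, Pik3ap1, St14, Tagap and Gramd3, each with 0 counts in both aged MEP libraries. Pik3ap1, an adaptor of B cell and myeloid signalling, was at 12.7 and 17.9 CPM in young MEPs and 89.7 and 95.4 CPM in young GMPs. Tagap was at 7.23 and 8.83 CPM in young MEPs and 59.6 and 63.2 CPM in young GMPs. By the same limit, the 5 genes in the other direction were Fos, Epor, Abcb4, Tspo2 and Kel. Fos, an immediate early gene, was at 15.3 and 19.1 CPM in young GMPs with no count in young MEPs, and at 796 and 648 CPM in aged GMPs and 85.3 and 67.3 CPM in aged MEPs. The other 4, all higher in MEPs, had 4 to 23 counts per library in young GMPs and none in aged GMPs, and fitted values against such groups depend on the prior count. The calls of Epor, Kel and Tspo2 were lost when some single libraries were left out.

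**Figure D5:**
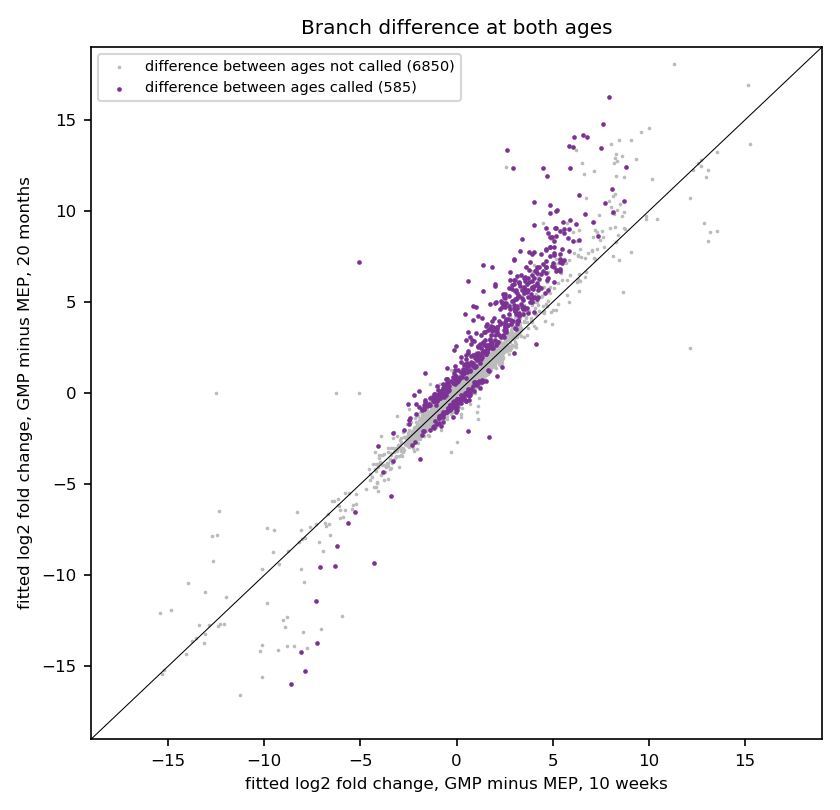
Fitted log2 fold change of GMPs over MEPs at 10 weeks (x axis) and at 20 months (y axis) for the 7435 genes averaging 20 CPM or more in the 4 young libraries, with the 585 whose difference changed between ages in purple and a line of equality. Of the purple genes, those higher in GMPs lie mostly above the line, that is with larger differences at 20 months, and the largest values come from groups with few or no counts.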

How the data were processed

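RNA of sorted fractions was amplified with the SMARTer Ultra Low Input kit and sequenced, and per the study and the submitters' processing notes reads were mapped to mm10 with TopHat2 2.0.13 and Bowtie2 2.1.0 and counted per gene with StringTie. The deposited counts are whole numbers, not normalised and without molecular identifiers, and strandedness is not given in the sources used here, so reads of overlapping, antisense or near-identical genes cannot be told apart. The tables of the authors' own age comparisons, which hold fold changes and p-values, and their normalised counts were not used.

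All 32 libraries were fitted in edgeR 4.0.16 (R 4.3.3) with 16 group means, TMM scaling and filterByExpr, which kept 14154 of 24421 genes. Contrasts were tested by the quasi-likelihood F-test with Benjamini-Hochberg adjustment over all tested genes. Gene symbols turned into dates (27 genes, 0.188% of counts) were left out of naming. The groups, gene lists and named genes were chosen with earlier results of these data known. Named were the tested factors of the 2 factor lists, of other function lists up to 4 called members by level and 2 against the majority, the 10 largest called differences per direction at 20 CPM or more, gate genes, the 3 highest members of other-cell lists, marker genes of the fractions and the 5 largest age differences per direction. Scripts were tested on simulated data. Alternatives were DESeq2 1.42.0, its size factors, GC and length offsets, no filter, fewer libraries, a replicate block, thinned counts, other thresholds and leaving out each library. RefSeq promoters (GRCm38.p6) were matched by symbol. Floors cover counting error only, and standard errors cover the spread between libraries as fitted. Some genes are not reported here.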

Additional observations from a re-analysis of the deposited data

Results flagged for a closer look

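Among the genes named above, the difference between GMPs and MEPs was not the same at the 2 ages in those that follow, by the interaction term of edgeR's quasi-likelihood test at an adjusted p under 0.01. Values are the log2 fold change at 10 weeks minus that at 20 months, and the young libraries enter every one. Among factors the value was -3.25 for Irf8, -2.15 for Spi1, -4.81 for Gfi1, -1.96 for Mef2c, -2.37 for Fli1, -1.81 for Id2, -2.08 for Sox4, -0.92 for Etv6 and -0.75 for Zeb2. It was above 0 for the erythroid factors Gata1 (1.27) and Gfi1b (2.16). Among granule and phagocyte genes it was -3.09 for Ctsg, -1.82 for Prtn3, -2.91 for Anxa1, -3.16 for Ncf1, -0.94 for Rac2, -1.81 for Ly6c2, -8.31 for Clec12a, -7.47 for Ly86, -2.31 for Csf3r and -1.75 for Cpa3.

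Mmp9 had a value of -10.12, Vcam1 of -4.83 and the B cell gene Cd79b of -5.67. In other cell functions it was -2.58 for Pkm, -2.76 for Sptan1, -2.10 for Cd27, -2.00 for Slc2a1, -1.76 for Bcl2, -0.92 for Ccnb1 and -0.90 for Top2a. Values above 0 were found for Alas2 (4.1), Mfsd2b (3.17), Irgm1 (0.48), G6pdx (0.47) and Cpox (0.43). In the genes named for the size of this value it was, below 0, -12.30 for Igll1, -10.73 for Pik3ap1, -9.68 for St14, -9.41 for Tagap and -8.80 for Gramd3, and, above 0, 7.64 for Fos, 7.40 for Epor, 7.36 for Abcb4, 6.46 for Tspo2 and 6.10 for Kel. In Alas2, Mmp9, Id2 and Igll1 the fitted difference between GMPs and MEPs had the opposite sign at 20 months. Fitted values against groups with no count depend on the prior count. With 2 libraries per group no single library was tested as standing apart.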

How the results depend on the processing

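The count of 7145 genes called between young GMPs and young MEPs was 4120 (2594 higher in GMPs, 1526 in MEPs) with a log2 fold change of at least 1 required in addition, and 4170 (2326 and 1844) in a fit of the 4 libraries alone, which tested 11884 genes. It was 6972 to 8548 under the other thresholds, scalings, filters and fits, and 6578 to 6912 when any one of the 4 libraries was left out. GMP-higher genes were 47.0% of the calls with thinned counts and 49.3% with no filter, against 55.3%. The count of 946 genes that differed between ages was 1826 (582 above 0, 1244 below) at an adjusted p under 0.05 and 1508 (347 and 1161) by DESeq2. Of those above 0, 63 remained with the fold requirement, 358 were called with GC and length offsets and 98 without the filter, against 177. Leaving out single libraries gave 62 to 196 above 0, the highest without the first young MEP library and the lowest without the first aged GMP library.

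Across tested genes, replicate 2 minus replicate 1 in young GMPs correlated with that in young MEPs at r = 0.000357. This value cannot tell whether libraries with the same number shared a pool or a sort. With a replicate block 7385 genes were called between fractions and 1054 between ages, and no call of a named gene changed. Among lists, ribosomal protein genes higher in MEPs were 3, but 16 with size factors and 40 with GC and length offsets. Ribosome biogenesis genes higher in MEPs were 23, 27 and 29 in the same order and 14 in the fit of the 4 libraries, and replication genes 23, 27, 36 and 19. For cholesterol synthesis 8 genes were higher in GMPs and 10 in MEPs with GC and length offsets. No primary granule, phagocyte oxidase, innate sensing or eosinophil gene was called higher in MEPs by edgeR, none had an unadjusted p under 0.05 there and none was called by DESeq2. No T and NK cell marker was higher in GMPs by the same 3 counts. No ribosomal protein gene was called higher in GMPs by edgeR or DESeq2, and 1 had an unadjusted p under 0.05 in that direction.

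Hba-a2, not called in any fit, reversed to -0.067 (DESeq2 and its size factors), -0.21 (GC and length offsets), -0.087 (no filter), -0.11 (16 young libraries), -0.018 (4 libraries) and -0.13 (thinned counts). When single libraries were left out it ran from -0.24 to 0.052, Hbb-bs from -4.99 to 7.20, Kctd12 from -7.61 to 11.48, Tuba1a from -0.45 to 15.59 and Maf from -0.93 to 1.09. The cause was not tested. With 2 libraries per group, sorted from pooled marrow, animals are not replicates, and values near the floor of 3 counts limit what can be said of genes low in both fractions.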
